A study of Mus musculus with 6 samples.

Results

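Proteases of the granzyme, mast cell protease, trypsin and neprilysin families were examined in C2C12 cells after knockdown of a long noncoding RNA. The genes were Gzmd, Gzme, Gzmf, Gzmg, Mcpt4, Try4 and Mmel1. They were chosen because probes of Gzme, Try4, Mcpt4 and Mmel1 stood out in this same contrast, and the other granzymes D to G were added as close relatives of Gzme. Their differences are therefore given as a description and support nothing by themselves. All probes whose accession matched one of the 7 symbols were taken, which gave 9 of the 39429 probes and 7 of the 20659 genes named on the array.

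C2C12 is a line of mouse myoblasts, muscle precursor cells that form myotubes in culture. An siRNA to the long noncoding RNA lncMGPF was given in 3 samples (si-lncMGPF), and a control siRNA in 3 others (si-NC). All cells had differentiated for 2 days, and total RNA labelled with Cy3 was read on 1-colour Agilent arrays. The question is what reducing lncMGPF, which is linked to myogenesis, does to transcript levels. No probe carried the name of lncMGPF, so the knockdown itself was not checked here, and the labels give neither the siRNA sequences nor whether replicates were separate cultures. Any p-value below therefore measures only the spread between these samples.

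Granzymes are serine proteases that cytotoxic lymphocytes and natural killer cells store in granules and deliver into target cells together with the pore protein perforin. Granzymes D, E, F and G are encoded by neighbouring, closely similar mouse genes and are known from activated lymphocytes and from the natural killer cells of the pregnant uterus. Mast cell protease 4, the product of Mcpt4, is a chymotrypsin-like granule enzyme of connective tissue mast cells. Try4 encodes a trypsin, a digestive enzyme of the exocrine pancreas, and Mmel1 encodes a membrane metallopeptidase related to neprilysin that cuts small peptides. None of these enzymes is a textbook muscle protein.

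Granzymes D to G belong to a family of closely similar transcripts, so it is uncertain which of them a probe reads. Similarity between the genes is shown here in the promoter windows that RefSeq gives on build GRCm38.p6 (250 bases before to 50 after the start of each gene). These windows are not what the probes bind, and those of Gzme and Gzmd are shown for the likeness of the genes alone, 5′ to 3′ on the minus strand of chromosome 14. Capitals mark the bases in which one differs from the other in a pairwise alignment or has no partner there.
Gzme (chr14:56120576-56120875): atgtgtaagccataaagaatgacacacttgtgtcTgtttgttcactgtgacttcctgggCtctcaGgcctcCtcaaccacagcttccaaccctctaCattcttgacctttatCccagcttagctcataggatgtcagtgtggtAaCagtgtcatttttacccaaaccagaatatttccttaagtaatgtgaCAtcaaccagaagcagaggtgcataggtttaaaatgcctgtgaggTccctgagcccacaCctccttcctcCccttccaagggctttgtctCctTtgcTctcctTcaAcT
Gzmd (chr14:56132544-56132843): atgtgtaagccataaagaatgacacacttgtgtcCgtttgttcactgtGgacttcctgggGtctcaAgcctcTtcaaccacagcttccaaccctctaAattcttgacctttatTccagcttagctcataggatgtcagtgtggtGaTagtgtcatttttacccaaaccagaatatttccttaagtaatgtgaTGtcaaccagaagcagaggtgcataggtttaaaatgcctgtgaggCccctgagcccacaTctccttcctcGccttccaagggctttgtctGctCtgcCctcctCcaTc
The pair was identical at 281 of 299 aligned bases (94%). Over the 6 pairs that Gzmd, Gzme, Gzmf and Gzmg form, identity ran between 87.8% and 94%. Over the 15 other pairs of the 7 genes it ran between 57.9% and 69.3%, with the same alignment settings. The window of Gzmc, a granzyme gene outside the 7, was 86.1% to 86.9% identical to those of Gzmd, Gzme, Gzmf and Gzmg. The probe sequences were not used here, so it was not tested whether a probe designed for one granzyme transcript also binds its relatives.

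The other windows had little in common with those of the granzymes. Those of Try4 and Mcpt4 are shown because each holds a TATA motif upstream of the start, searched as TATAAA on both strands and marked in capitals. That of Mmel1 is shown because it holds CAGCTG downstream of the start, an E-box form bound by the myogenic factor MyoD, also in capitals. Other E-box forms are not marked.
Try4 (chr6:41302022-41302321, plus strand): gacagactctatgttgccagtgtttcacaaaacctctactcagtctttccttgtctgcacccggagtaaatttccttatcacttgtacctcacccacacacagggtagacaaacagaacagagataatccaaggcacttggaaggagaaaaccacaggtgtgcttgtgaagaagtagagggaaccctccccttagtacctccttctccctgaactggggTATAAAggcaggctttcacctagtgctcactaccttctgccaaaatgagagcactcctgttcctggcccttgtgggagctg
Mcpt4 (chr14:56062261-56062560, minus strand): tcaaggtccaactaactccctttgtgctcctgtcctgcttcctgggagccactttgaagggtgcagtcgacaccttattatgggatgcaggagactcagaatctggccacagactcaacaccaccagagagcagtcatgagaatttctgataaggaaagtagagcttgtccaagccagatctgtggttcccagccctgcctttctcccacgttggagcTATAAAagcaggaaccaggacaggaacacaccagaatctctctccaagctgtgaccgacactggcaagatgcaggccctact
Mmel1 (chr4:154869335-154869634, plus strand): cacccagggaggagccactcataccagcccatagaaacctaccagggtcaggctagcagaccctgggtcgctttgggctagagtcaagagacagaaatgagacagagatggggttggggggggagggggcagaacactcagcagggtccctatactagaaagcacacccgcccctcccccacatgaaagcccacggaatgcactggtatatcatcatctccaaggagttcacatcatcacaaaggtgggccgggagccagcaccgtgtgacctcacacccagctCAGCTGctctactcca
TATAAA occurred in 13.6% of the 32851 promoter windows of the RefSeq table, and of the 7 genes in those of Try4 and Mcpt4. CAGCTG, which is one form of the general E-box CANNTG, occurred in 16.3% of the windows, and of the 7 genes in that of Mmel1. CANNTG itself occurred in 72.3% of the windows, so its presence in those of Gzmd, Gzme, Gzmf, Try4 and Mmel1 is common. The motif TGANTCA occurred in 7.81% of the windows and in none of these 7. A match is a string of letters in the window and not evidence of a bound factor.

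Signal was expressed as log2 of the scanner's processed signal minus the 75th percentile of that array. Positive values are therefore above that percentile, and a difference of 1 is a 2-fold difference. The 75th percentile itself was 492.1 to 923.0 intensity units on the si-lncMGPF arrays and 688.2 to 930.7 on the si-NC arrays. By their shared scan identifiers, si-lncMGPF replicates 2 and 3 lay on one slide (slide 2) and si-lncMGPF replicate 1 lay on another (slide 1) with all 3 si-NC arrays. Negative control spots read 37.3 and 42.5 intensity units on slide 2, against 20.1 to 21.8 on slide 1, so low signals are less certain on slide 2. Of all probes 57.3% and 56.9% were well above background on slide 2 and 64.1% to 65.3% on slide 1. All 10 muscle markers listed for this work, among them Myod1, Myog and Des, were well above background on all 6 arrays. Tested probes were those that the scanner software marked as well above background on all 3 arrays of either group. This held for 62.5% of all probes and for 6 of the 9 protease probes.

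The measured proteases were Gzme, Mcpt4, Try4 and Mmel1, and all of their probes read lower in si-lncMGPF than in si-NC. Limma, with Benjamini-Hochberg adjustment over all 24661 tested probes at a threshold of 0.05, called 5 of the 6 tested probes, all lower, from 4 genes. Over all tested probes 0.105% were called, and 0.077% were called lower. For 6 of the 6 tested probes the groups did not overlap and si-lncMGPF was lower, which was so for 13.4% of all tested probes. Since the genes were chosen from this contrast, these counts describe the choice and nothing is read from them. Of the called probes that of Mcpt4 lay nearest the threshold on the inside, at a log2 difference of -0.75. The second probe of Mmel1 lay outside it. Neither Mmel1 probe was flagged as well above background in si-lncMGPF.

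Gzme was measured by a pair of probes, A_55_P1971009 and A_55_P1971010. On the first, log2 signal was 0.26, 0.44 and 0.20 on si-lncMGPF replicates 1, 2 and 3, against 1.63, 1.64 and 1.59 on si-NC replicates 1, 2 and 3. In processed intensity these were 1105, 789.4 and 565.3 units in si-lncMGPF and 2878, 2141 and 2280 units in si-NC. The groups stood far apart, and the si-NC arrays lay within 0.04 of each other on the log2 scale. Means were 0.30 ± 0.13 in si-lncMGPF and 1.62 ± 0.02 in si-NC (SD, n = 3 each), a log2 difference of -1.32 (SE 0.10). The level in si-lncMGPF was 40.1% of that in si-NC.

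The second Gzme probe read -0.31, -0.01 and -0.13 on si-lncMGPF replicates 1, 2 and 3, against 0.96, 0.90 and 0.93 on si-NC replicates 1, 2 and 3. It was thus also lower on every si-lncMGPF array, with a log2 difference of -1.08 (SE 0.10). The difference between both probes on the same array was 0.57, 0.46 and 0.33 in si-lncMGPF, and 0.67, 0.74 and 0.66 in si-NC. The fitted differences of both probes are thus not equal, the first being larger in size, with no test between them.

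Gzmd, Gzmf and Gzmg, the close relatives of Gzme, were each read by 1 probe that was well above background on none of the 6 arrays. The Gzmd probe gave 3.27, 3.69 and 3.86 intensity units on si-lncMGPF replicates 1, 2 and 3, against 11.7, 9.53 and 6.81 units on si-NC replicates 1, 2 and 3. The Gzmf probe gave 3.37, 11.04 and 3.97 units on the si-lncMGPF arrays, against 3.09, 2.37 and 2.84 on the si-NC arrays. The Gzmg probe gave 4.27, 10.4 and 10.8 units on the si-lncMGPF arrays, against 5.13, 2.71 and 5.92 on the si-NC arrays. These signals lie among those of probes not well above background and have no reliable order, so no fold is given for them. The high Gzmf value and both high Gzmg values in si-lncMGPF were on slide 2, where negative control spots also read higher.

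**Figure D1:**
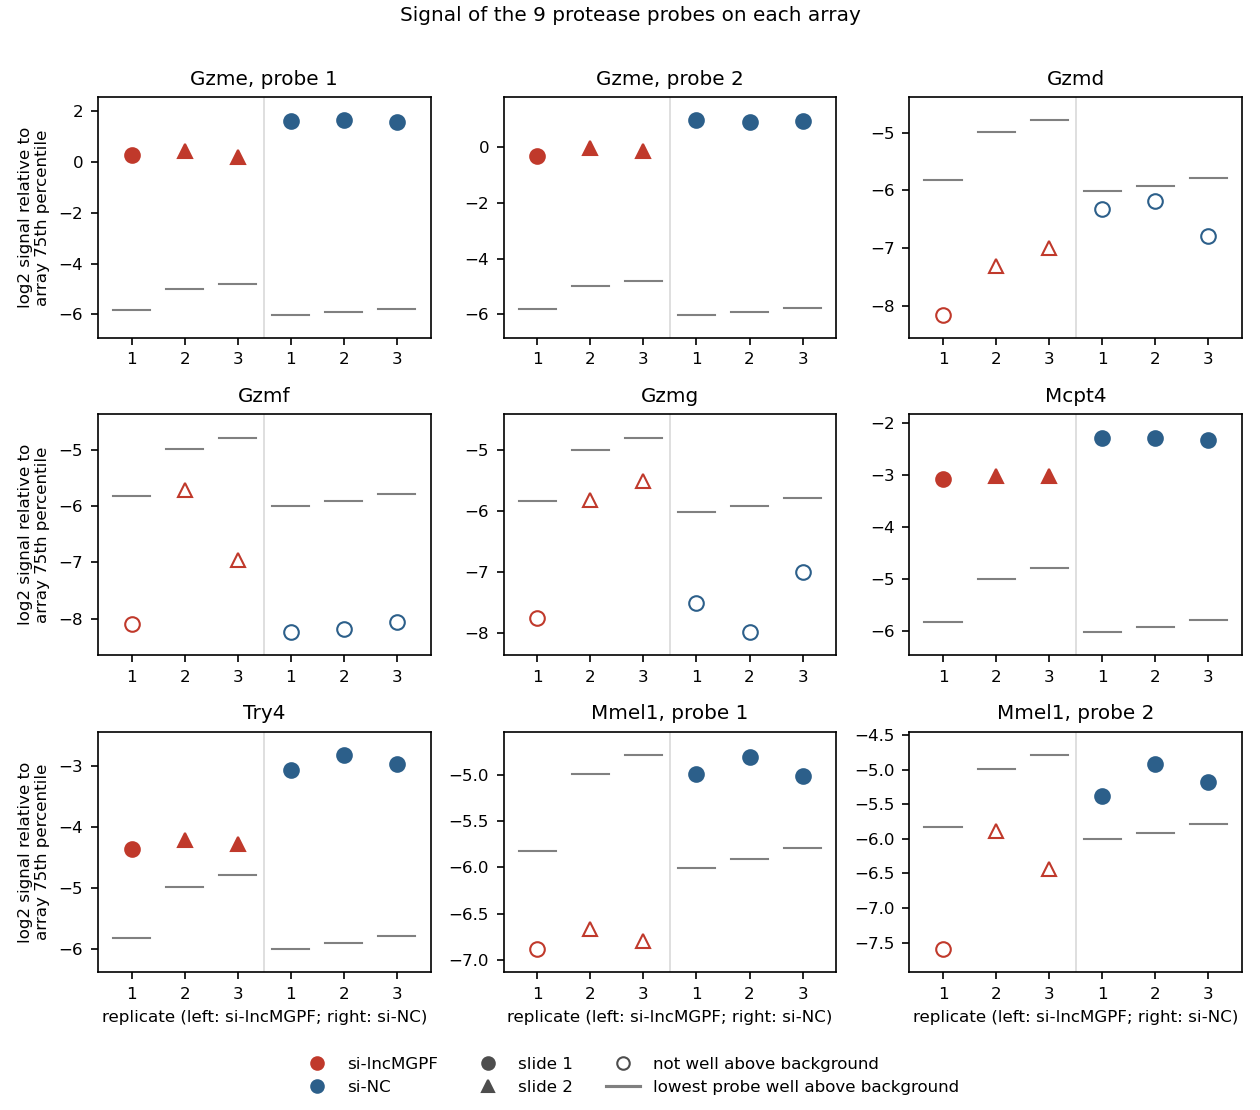
Log2 signal relative to the array's 75th percentile (vertical axes, which differ between panels) for each of the 9 protease probes on the si-lncMGPF arrays (red, left) and the si-NC arrays (blue, right), with circles for slide 1, triangles for slide 2 and open symbols where a probe was not well above background. Grey bars give the lowest probe well above background on that array. Both Gzme probes, Mcpt4 and Try4 were well above background on all 6 arrays and lower on each si-lncMGPF array, Mmel1 was well above background on the si-NC arrays alone, and Gzmd, Gzmf and Gzmg were not well above background on any array.

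Mcpt4, the chymotrypsin-like mast cell protease, read -3.08, -3.02 and -3.02 on si-lncMGPF replicates 1, 2 and 3, against -2.28, -2.28 and -2.31 on si-NC replicates 1, 2 and 3. In processed intensity this was 109.2, 71.5 and 60.7 units in si-lncMGPF and 191.9, 141.7 and 151.9 units in si-NC. Replicates of each group lay close together, and the log2 difference was -0.75 (SE 0.08), the smallest among the 4 protease probes measured on all arrays. The level in si-lncMGPF was 59.5% of that in si-NC.

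Try4, the trypsin, read -4.37, -4.22 and -4.29 on si-lncMGPF replicates 1, 2 and 3, against -3.08, -2.83 and -2.97 on si-NC replicates 1, 2 and 3. The signals were 44.7, 31.0 and 25.1 intensity units in si-lncMGPF, and 110.4, 97.1 and 96.5 units in si-NC. All si-lncMGPF arrays lay below all si-NC arrays, with a log2 difference of -1.34 (SE 0.10) and a level of 39.5% of that in si-NC. On slide 2 the Try4 values stood only slightly above the lowest probe that counted as well above background, which was at -5.00 and -4.79.

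Mmel1, the neprilysin-like peptidase, was measured in si-NC alone. Its first probe, A_55_P1973818, read -6.88, -6.67 and -6.79 on si-lncMGPF replicates 1, 2 and 3, none of them well above background, against -5.00, -4.81 and -5.01 on si-NC replicates 1, 2 and 3. A probe measured in one group alone gives only a bound on the fold. For each si-lncMGPF array the higher of the probe's own value and the array's lowest value well above background was taken, and their mean was set against the si-NC mean. Both Mmel1 probes had this pattern of flags, as did 0.451% of all probes.

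By that bound Mmel1 was at least 1.2-fold lower in si-lncMGPF on the first probe and at least 1.03-fold lower on the second, A_55_P2001078. The bound is small because on the slide 2 arrays a probe had to reach -5.00 or -4.79 to count as well above background, about where Mmel1 stood in si-NC. On the slide 1 array of si-lncMGPF, where the lowest such probe was at -5.82, the first probe was at least 1.85-fold lower and the second at least 1.59-fold lower. The second probe read -7.59, -5.89 and -6.44 on the si-lncMGPF arrays, against -5.38, -4.91 and -5.18 on the si-NC arrays.

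Because slide and group partly coincide, each difference was also taken within slide 1, where the single si-lncMGPF array stood against the 3 si-NC arrays. There the si-lncMGPF array lay below every si-NC array for 6 of the 6 tested protease probes, which was so for 43.2% of all tested probes. The log2 difference was -1.36 and -1.24 for the Gzme probes, -0.79 for Mcpt4 and -1.41 for Try4. The slide 2 arrays of si-lncMGPF set against the same si-NC arrays gave -1.30 and -1.0 for Gzme, -0.73 for Mcpt4 and -1.30 for Try4. For these 4 probes the values from either slide differed by 0.24 or less. The choice of genes from the contrast over all arrays favours such agreement and such an order within slide 1, so nothing is read from either. For Mmel1 a bound was taken within slide 1 and none within slide 2. On slide 2 a probe had to reach about the si-NC level of Mmel1 to count as well above background. With slide as a fixed block, limma called 1 of the 6 protease probes, the first of Mmel1, and 0.0405% of all tested probes. That call rests on signals not well above background in si-lncMGPF. The fit estimates the effect from the slide 1 arrays, so it also rests on 1 si-lncMGPF array.

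Background correction moved the genes by unequal amounts. After normexp correction with an offset of 50 and the same 75th percentile scaling, both Gzme probes kept log2 differences of -1.22 and -1.03 and their calls, when 0.0405% of all tested probes were called. Try4 had -0.49 and Mcpt4 -0.37 after this correction, and neither was called. The Mmel1 probes, whose fitted values rest on signals not well above background in si-lncMGPF, had -0.01 and 0.07. With quantile normalization after normexp the differences were -0.70 for Try4, which was called, and -0.49 for Mcpt4, -0.35 and -0.27 for Mmel1, which were not, with 0.0973% of all probes called. The offset lies above the processed signals of Try4 on every si-lncMGPF array and of Mmel1 on every array. It pulls differences of such dim probes towards 0 by construction. The Gzme difference is thus the one of the 4 genes that this choice moved little.

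**Figure D2:**
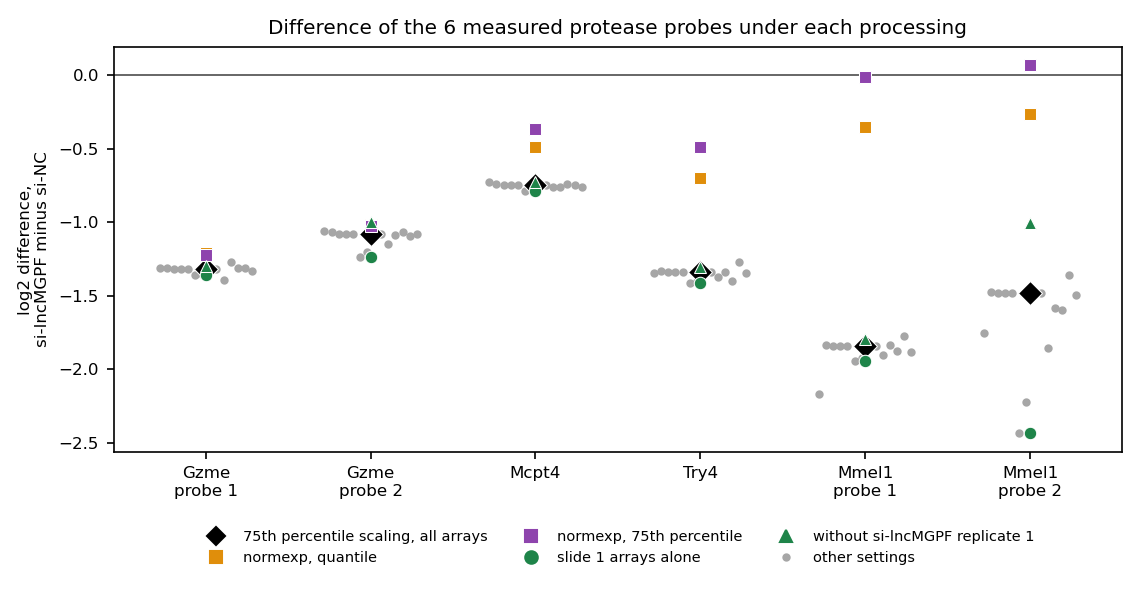
Log2 difference of si-lncMGPF minus si-NC (vertical axis) for the 6 tested protease probes under each processing: 75th percentile scaling over all arrays (diamonds), normexp (squares), slide 1 arrays alone (green circles), without si-lncMGPF replicate 1 (green triangles) and the other settings (grey). The Gzme values stay between -1.39 and -1.0 under all 18 alternatives, while normexp moves Try4, Mcpt4 and Mmel1 towards 0.

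In chromosome order, by the RefSeq gene table, Mcpt4 and the 4 granzyme genes belong to one block of mast cell protease and granzyme genes on mouse chromosome 14. The stretch taken here runs from Cma2, Mcpt1, Mcpt2, Mcpt9, Mcpt4, Mcpt8 and Ctsg through Gzme, Gzmd, Gzmg, Gzmn, Gzmf, Gzmc and Gzmb. It was cut at Cma2, so the extent of the block on that side was not examined. Of the genes between Cma2 and Gzmb that are not among the 7, 4 were tested and 0 were called (limma). Mcpt8, which encodes a basophil protease, had a log2 difference of -0.50 (95% interval -0.88 to -0.13, adjusted p = 0.242). Within slide 1 Mcpt8 had -0.83, where Mcpt4 had -0.79. Cma2, a chymase gene, had -0.36 (95% interval -0.68 to -0.05, adjusted p = 0.274), with -0.11 within slide 1.

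Ctsg, the cathepsin G gene that lies between Mcpt8 and Gzme, had a positive difference of 0.22 (95% interval -0.06 to 0.49, adjusted p = 0.391). Mcpt1, a mucosal mast cell protease gene, was dim on all si-lncMGPF arrays, none of them well above background, and was at least 1.22-fold lower there by the same kind of bound (adjusted p = 0.183). The lowest values well above background on slide 2, -5.00 and -4.79, lay about at its si-NC mean of -4.89. That bound thus rests on the slide 1 array of si-lncMGPF. Gzmn, Gzmc and Gzmb, like Gzmd, Gzmg and Gzmf, were not well above background on any array. The differences along this stretch were thus unequal in size. Ctsg was the only tested gene in it with a positive difference, and its interval included 0, so its sign is uncertain. Beyond Gzmb followed Atp12a (-0.19), Rnf17, which was not tested, and Cenpj (-0.09).

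**Figure D3:**
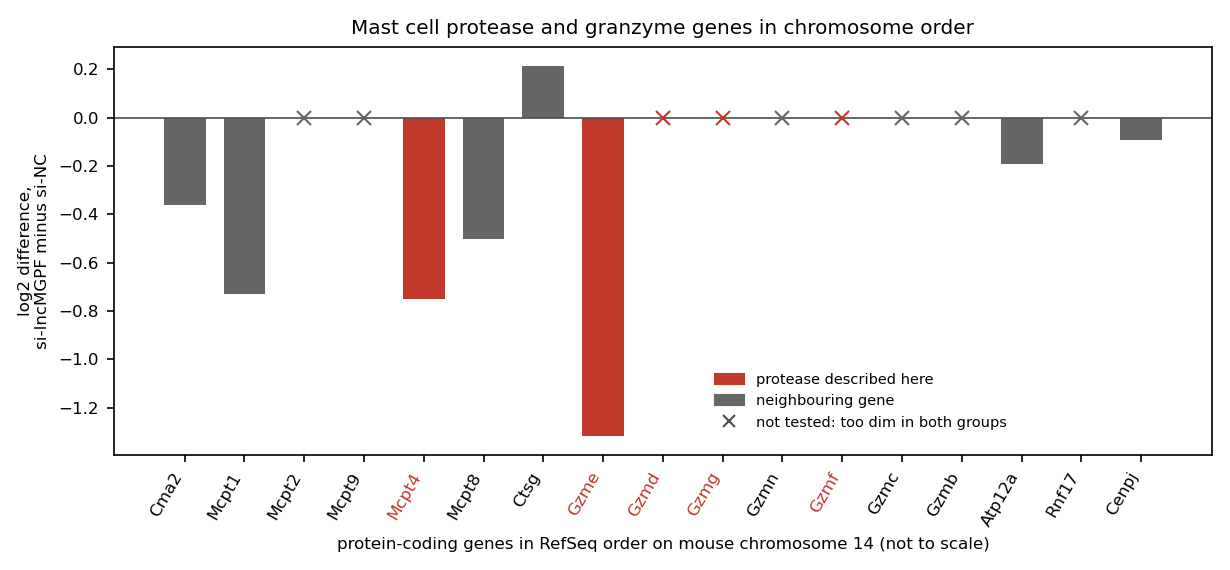
Log2 difference of si-lncMGPF minus si-NC (vertical axis) for protein-coding genes in their RefSeq order around the granzyme block, with genes described here in red, neighbours in grey and crosses for genes too dim to test in both groups. Gzme (-1.32) and Mcpt4 (-0.75) are the called genes, the bar of Mcpt1 rests on a gene measured in si-NC alone, and Ctsg stands above 0.

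The other genes of these enzyme families were taken from lists of granzymes, mast cell proteases, trypsins, M13 peptidases, protease regulators and cell markers. Of 85 listed genes besides the 7, 80 had a probe and 53 were tested, and 0 were called by limma (lowest adjusted p = 0.120), with 18 at an unadjusted p below 0.05, 11 lower and 7 higher. Over all tested probes 15.8% had such an unadjusted p. Of the 11 lower genes, Mcpt1, Cela3b, Cd8a and Il2rb passed the filter through the si-NC arrays alone, which favours a lower reading in si-lncMGPF. The gene with the lowest adjusted p was Try5, a trypsin gene next to Try4, which was singled out after its values were seen. Try5 read -3.91, -3.40 and -3.45 on si-lncMGPF replicates 1, 2 and 3, against -2.64, -2.46 and -2.47 on si-NC replicates 1, 2 and 3. Its groups did not overlap, and its log2 difference was -1.06 (95% interval -1.43 to -0.69, adjusted p = 0.120), with -1.38 within slide 1. Trypsin genes are also close relatives of each other, so the signals of Try4 and Try5 cannot be assigned with certainty.

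Among the other granzymes 3 of 6 were tested, with a median log2 difference of 0.03 where all tested probes had 0.01. Gzmk had 0.09 (95% interval -0.18 to 0.36) and Gzmm -0.03 (95% interval -0.27 to 0.21). Tpsb2, a mast cell tryptase gene, had -0.08 (95% interval -0.42 to 0.26), and the mast cell protease list had a median of -0.23 over 6 tested genes, 5 of them negative. Among these 5, Mcpt1 passed the filter through the si-NC arrays alone, which favours a negative sign.

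In the trypsin and pancreatic protease list 7 genes were tested, 5 of them negative, with a median of -0.28. Among these 5, Cela3b passed the filter through the si-NC arrays alone, which favours a negative sign. Ctrb1, the chymotrypsinogen gene, had -0.52 (95% interval -0.73 to -0.31, adjusted p = 0.134), Cela1, an elastase gene, 0.17 (95% interval -0.09 to 0.43) and Prss1, a trypsin gene, 0.21 (95% interval -0.16 to 0.58). Among the M13 peptidases, the family of Mmel1, 4 of 6 were tested, with a median of -0.03. Ece1, the endothelin-converting enzyme, had 0.05 (95% interval -0.19 to 0.28), Ecel1 -0.10 (95% interval -0.44 to 0.24) and Phex, a regulator of phosphate handling, 0.45 (95% interval 0.05 to 0.86, adjusted p = 0.279). Neprilysin itself, Mme, was not well above background on any array.

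Among genes that activate, carry, inhibit or respond to such proteases 11 of 17 were tested, with a median of 0.05. Serpinb6a, an intracellular serine protease inhibitor, had 0.05 (95% interval -0.22 to 0.32). Igf2r, the mannose 6-phosphate receptor, had -0.14 (95% interval -0.33 to 0.05). F2r, the thrombin receptor, had 0.45 (95% interval 0.20 to 0.71, adjusted p = 0.203).

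**Figure D4:**
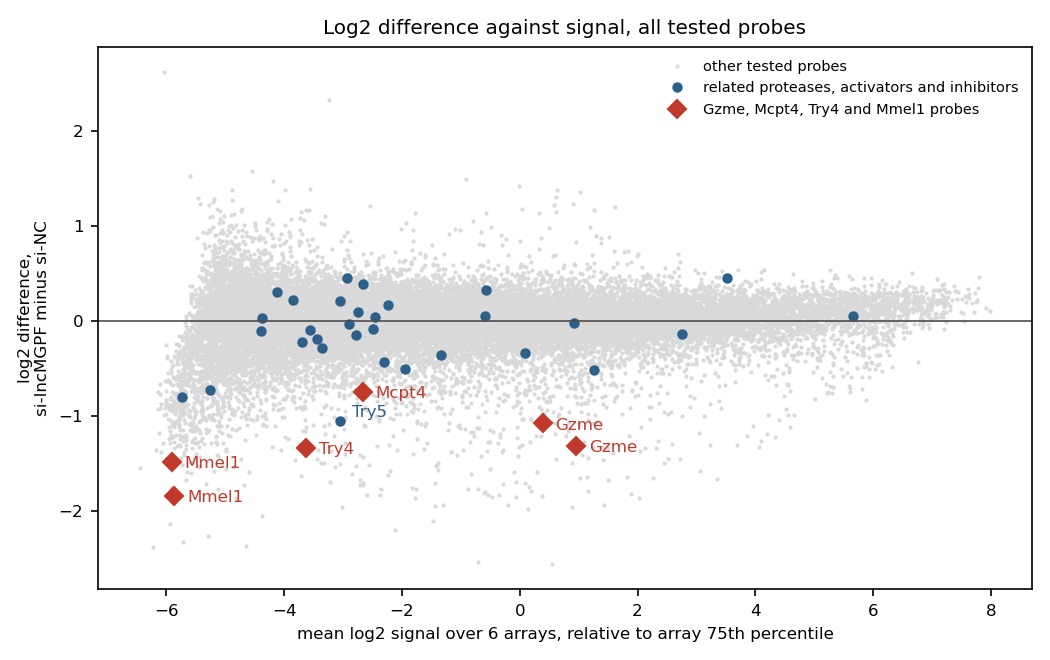
Log2 difference of si-lncMGPF minus si-NC (vertical axis) against mean log2 signal over the 6 arrays (horizontal axis) for all 24661 tested probes (grey), with the 6 tested protease probes in red and the tested related proteases, activators and inhibitors in blue. The Gzme probes have differences of -1.32 and -1.08, the Mmel1 probes lie at the dim end, and Try5 is the related gene nearest to Try4.

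Markers of the cells best known for these proteases were looked at as well. Levels of a list were summed over its genes as signal relative to the 75th percentile. The 12 cytotoxic lymphocyte markers summed to 2.73 to 2.84 in si-lncMGPF and 2.59 to 3.18 in si-NC, with 3 well above background on all arrays and 5 on none. Nkg7 and Cd3e make up most of that sum. Of the 7 tested genes of this list 7 had a negative difference, with a median of -0.13. Ptprc, Cd8a, Cd8b1 and Il2rb passed the filter through the si-NC arrays alone. That favours a negative sign, so nothing is read from this count. Nkg7 had -0.04, Cd3e -0.09 and Prf1, the perforin gene, -0.43 (adjusted p = 0.280), with -0.08 for Prf1 within slide 1. Named after their values were seen, Il2rb, an interleukin receptor gene, had -0.65 (adjusted p = 0.191) and Cd8a, a marker of cytotoxic T cells, -0.52 (adjusted p = 0.238). Both were without overlap of the groups, and each was well above background on 1 si-lncMGPF array, that of slide 1, and on all 3 si-NC arrays. Within slide 1 Il2rb had -0.37 and Cd8a -0.24. Their larger differences over all arrays thus rest on slide 2 signals not well above background. The natural killer cell markers Klrd1, Klrb1c and Ncr1 and the T cell marker Cd3g were not well above background on any array.

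Of the 8 mast cell markers with a probe, 5 were above background on no array, namely Kit, Fcer1a, Ms4a2, Cpa3 and Cma1. Their list summed to 1.41 to 1.63 in si-lncMGPF and 1.63 to 1.67 in si-NC, with Hdc at -0.24 (adjusted p = 0.275) and Gata2 at 0.05. The 9 pancreatic acinar markers summed to 2.70 to 2.87 in si-lncMGPF and 3.34 to 3.75 in si-NC, without overlap, and Ctrb1, described above, makes up most of that sum. Of the 6 tested genes of this list, however, 2 had a negative difference, Ctrb1 and Cel (-0.27), and 4 a positive one, with a median of 0.12. Cpa1, a carboxypeptidase gene, had 0.60 (adjusted p = 0.125) and Rbpjl, an acinar transcription factor gene, 0.47 (adjusted p = 0.214), both without overlap of the groups and both named after their values were seen. The acinar factor gene Ptf1a was not well above background on any array. The 10 muscle markers summed to 120.3 to 132.8 in si-lncMGPF and 120.6 to 129.8 in si-NC, with log2 differences of 0.27 for the cardiac actin gene Actc1, -0.15 for the embryonic myosin gene Myh3 and -0.30 for the skeletal actin gene Acta1. The labels give every sample as C2C12 cells, so these lists describe probe signal and do not count other cell types. The part of other cell types in the protease signals was not tested. In bulk RNA of this kind, fewer cells that make a transcript and less of it per cell cannot be told apart.

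The pattern of the first Gzme probe over the 6 arrays was also compared with that of 16563 probes of named genes measured on all arrays. The highest Pearson correlations were those of Akap13 (0.998), Zfp65 (0.998), Inpp5j (0.997), Serpinb9e (0.996) and Nav2 (0.996). The arrays fall into a low and a high level by group, so such a correlation mostly restates a difference between the groups, and 3.68% of the compared probes had one above 0.9. Their adjusted p ranged from 0.0829 to 0.221 (limma), and their log2 differences were -0.29, -0.30, -0.53, -0.68 and -0.41 in the same order.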

How the data were processed

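Cy3-labelled total RNA of 6 C2C12 samples was hybridised to Agilent mouse arrays, per the labels. Intensity values in the deposited tables had been background-subtracted and detrended by Feature Extraction 11.0.1.1, per the file headers, with a flag for probes well above background that stands as deposited. An additional table by the authors repeats these intensity values (equal at 44397 of 44397 spots on each array, with no tolerance). Its median over non-control spots was 74.3, 42.8 and 38.3 on si-lncMGPF replicates 1, 2 and 3 and 70.2, 54.2 and 59.9 on si-NC replicates 1, 2 and 3.

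Control spots and outlier spots (117 to 134 per array) were left out, and none was saturated. The processed signal was put on the log2 scale, the 75th percentile of each array was subtracted, and spots of one probe were averaged. A probe counted as above background unless most of its spots failed that flag. Accessions without version were matched to a RefSeq table of GRCm38.p6, while the array design uses mm9, so probe and gene positions are not given, and the coordinates printed are those of the RefSeq promoter windows. This named 27234 probes, of 20659 genes. A gene was represented by its probe with the highest mean signal.

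The group difference was fitted by limma 3.58.1 (R 4.3.3, lmFit, then eBayes) over 24661 probes with no covariate, after the procedure was tested on simulated data. The simulated arrays had no slide effect, and 6.7% of 1.5-fold, 59.4% of 2-fold and 93.8% of 4-fold changes were called. A gene that was not called may therefore still differ. Promoter windows were aligned globally with Biopython 1.88. The number of arrays limits the precision.

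The genes and lists were chosen with earlier results of these data known. Besides every probe of the 7 genes, the text names genes beside the granzyme and Mcpt4 genes, the 5 genes most correlated with Gzme, any called list gene, and up to 3 list genes of high signal above background on all arrays. Others were chosen after their values were seen. Alternatives were quantile normalization, median centring, normexp correction with an offset of 50 on median spot signals, other filters, another variance model, slide and replicate blocks, the series table and leaving out each array; normexp with 75th percentile scaling was added after seeing the data.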

Additional observations from a re-analysis of the deposited data

How the results depend on the processing

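Signs of the 6 tested protease probes were the same under 18 alternatives, except for the second Mmel1 probe, which was 0.07 after normexp with 75th percentile scaling (chosen after seeing the data). Over these alternatives the log2 difference ranged from -1.39 to -1.21 and from -1.24 to -1.0 for the Gzme probes, from -1.41 to -0.49 for Try4, from -0.79 to -0.37 for Mcpt4, from -2.17 to -0.01 for the first Mmel1 probe and from -2.44 to 0.07 for the second. The Mmel1 values are fitted from signals not well above background in si-lncMGPF.

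Calls moved far more than differences. Against 5 called protease probes in the main analysis, limma called 2 with quantile normalization, 3 with median centring, 3 with normexp and quantile normalization, 2 with normexp and 75th percentile scaling, 3 with an intensity trend and robust prior, 1 with slide as a fixed block, 0 on the slide 1 arrays alone and 0 with no filter on dim probes. It called 4 of 4 among probes above background on all arrays, and 5 with the series table. With no filter more probes are tested, and on slide 1 fewer arrays; otherwise the cause was not tested. Over all probes the count was 26, against 6 with quantile normalization, 24 with median centring, 24 with normexp and quantile normalization, 21 with the trend, 23 among probes above background on all arrays, 30 with slide as a random block, 26 with the series table, 10 with normexp and 75th percentile scaling, 10 with slide as a fixed block, 1 on slide 1 and 0 with no filter (5277 at an unadjusted p below 0.05). Try5 was the 1 related probe called with slide as a random block, where 5 protease probes were called.

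Leaving out each array in turn gave 0 to 6 called protease probes, 0 to 4105 called probes in all and 0 to 15 related probes. The high counts came without si-lncMGPF replicate 1, which leaves slide and group identical, so they cannot be told apart. Without si-lncMGPF replicate 2 the counts were 2 protease probes and 4 in all. They were 0 and 0 by limma without si-lncMGPF replicate 3 or without si-NC replicate 1, 2 or 3, where 2232, 2696, 1925 and 1877 probes had an unadjusted p below 0.05.

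With the replicate number as a block (replicate block) limma called 0 protease probes and 0 probes in all (4430 at an unadjusted p below 0.05). Deviations from the group means correlated at 0.18, 0.32 and -0.06 between arrays of the same number, and at -0.29 to 0.06 between arrays of different numbers. Not every array correlated best with its own number. With so few arrays per group, these values cannot decide whether the numbers pair the samples. Background limits Gzmd, Gzmf, Gzmg and Mmel1.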
